A study of Mus musculus with 6 samples.

Results

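The cytosolic ribosomal protein genes encode the proteins of the ribosomes that translate nuclear mRNAs. They were taken as every gene whose symbol begins with Rpl, Rps or Rplp and goes on with a number and, at most, the letters a, x, l or y, without reference to any expression value. The rule found 80 of the 39179 listed genes, 50 of the large subunit (Rpl and Rplp) and 30 of the small subunit (Rps), on 19 chromosomes. It leaves out genes such as Rpsa, Fau, Rps3a1, Rpl22l1 and Rpl7l1, which belong to the family but are named otherwise. RNA came from Ocy454 cells, a mouse osteocytic line that is a single cell subclone, which grew at 33 °C to confluence and then for 14 days at 37 °C. Cells received vehicle (PBS with 25 mM HCl per the labels, though the study's methods name DMSO stocks of compounds for work in culture), parathyroid hormone PTH 1-34 at 1 nM or the salt-inducible kinase (SIK) inhibitor YKL-05-093 at 0.5 µM for 4 h, and each of the 3 groups had 2 libraries. The 2 libraries of a group are called duplicates, and nothing in the sources says that they came from separate cultures, so p-values measure only the spread between these libraries, which may be technical. Parathyroid hormone raises cAMP in osteocytes, the cAMP-dependent kinase then inhibits SIKs, and the design asks how far an inhibitor of SIKs changes the same genes as the hormone.

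Ribosomal protein mRNAs are among the most abundant in growing cells, and most of the proteins are needed in equal numbers in each ribosome. Their promoters start transcription inside a short run of pyrimidines, so that the mRNAs carry a 5′ terminal oligopyrimidine (TOP) tract. Through this tract the kinase mTORC1 and the RNA-binding protein LARP1 adjust translation. Transcription of the genes, and more strongly that of the factors that process ribosomal RNA, responds to MYC. Mammalian genomes also hold many processed pseudogenes of these genes, and short reads from the near-identical copies are hard to place.

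Pyrimidine runs near the annotated start of transcription are shown first, because a run at the start is the feature of sequence that these genes are known to share. RefSeq promoter windows (GRCm38.p6, 250 bases before to 50 bases after each annotated start) matched 60 of the 80 genes by symbol. The capitals mark the run of C followed by pyrimidines nearest to the annotated start. Shown are 8 of the 28 genes whose run held at least 8 bases and began within 20 bases of that start. The 8 had the highest vehicle level among the 28. In all, 49 of the 60 genes held a run of C and at least 6 pyrimidines near the start. In 23 of these the run began within 10 bases of it. The runs of Rpl4, from -17 (13 bases), and Rps25, from -19 (11 bases), end before the annotated start. Those of Rpl13a, Rps26 and Rpl39 begin after it, at bases 3, 5 and 7, and those of Rps9, Rpl14 and Rps24 span it. Whether a marked run is the TOP tract was not tested.
Rpl4 (chr9:64173362-64173391, + strand): tgacaagtCTTTCCTTTTCCTgtgggagca
Rps26 (chr10:128626484-128626513, - strand): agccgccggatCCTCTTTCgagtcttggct
Rpl13a (chr7:45128722-45128751, - strand): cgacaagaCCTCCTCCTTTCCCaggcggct
Rps9 (chr7:3704025-3704054, + strand): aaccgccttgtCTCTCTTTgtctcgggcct
Rpl14 (chr9:120571501-120571530, + strand): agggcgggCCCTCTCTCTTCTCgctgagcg
Rps24 (chr14:24490665-24490694, + strand): cgcgctggggtCCTTCCTTgcgcgttgata
Rpl39 (chrX:37085198-37085227, - strand): gcctctagcgaCTTCTTCTaatcgcgttct
Rps25 (chr9:44407686-44407715, + strand): accgggcttCCTTTTTTTCCgacatcttag

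A C followed by at least 7 pyrimidines stood between 20 bases before and 50 bases after the start in 80% of the 60 genes and in 22.6% of the 26965 other genes with a window. With at least 6 pyrimidines the shares were 81.7% and 32.8%. In the same stretch, CTTTCC or CTTTTC was found in 45% against 6.38%, and CTTTC in 51.7% against 10.3%. In all, 15 motif definitions were searched, the other 11 over the whole window and on both strands. CGGAAG, the core letters bound by ETS factors, was found in 68.3% against 18.7%, and its longer form CCGGAAG in 40% against 9.86%. TCTCGCGA was found in 16.7% against 1.10%, ATGGCG in 31.7% against 10.2%, GGGCGG in 60% against 38.2%, and CTTCC, which the CGGAAG match on the other strand contains, in 91.7% against 73.8%. The E-box letters CACGTG, which MYC and its partners bind, were found in 10% against 8.09%, and TATAAA in 10% against 15.7%. These are descriptions of letters in windows, the other genes were not matched for base composition, and no factor's binding was measured.

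The letters TGACGTCA, the full cAMP response element bound by CREB, stood in 5 of the 60 windows (8.33% against 2.02%), and the shorter overlapping forms TGACGT and TGACG in 18.3% against 8.35% and 48.3% against 23.0%. The 5 are shown because PTH acts through cAMP, and the capitals mark the element.
Rps9 (chr7:3703973-3704002, + strand): gcggtgcgtgaTGACGTCActacaaggcga
Rpl26 (chr11:68901421-68901450, + strand): cctccgagggaTGACGTCAggacccctcgc
Rpl13 (chr8:123102315-123102344, + strand): gcgggttcgcgTGACGTCActtccctttcg
Rpl18 (chr7:45717981-45718010, + strand): tcgcgctcatgTGACGTCAcccgtgcacca
Rpl27a (chr7:109519087-109519116, + strand): gccgggagccgTGACGTCAggagcccttcc
The median log2 fold change in PTH against vehicle was 0.28 over these 5 genes and 0.20 over the 53 other tested genes with a window. The medians in YKL-05-093 against vehicle were 0.24 and 0.13. In PTH against YKL-05-093, which leaves vehicle out, the order was the other way, at 0.05 and 0.08. As set out below, the family's medians against vehicle depended on vehicle replicate 1. None of the 5 passed the test in any of these comparisons, and the differences between the medians were not tested.

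The deposited values are RPKM, reads scaled to the length of the gene and to the depth of the library, and whole reads were recovered from them. The library totals ran from 17505798 to 27983585 reads, the fewest in vehicle replicate 1. The Wilson interval and the floor of 3 reads given below cover counting error only, and the limma intervals cover the spread between libraries. Of the 80 genes, 78 reached 0.5 RPKM in at least 2 libraries and were tested, with between 12 and 51459 reads per library, and 72 of them had at least 100 reads in every library. Of 15 listed markers of osteoblasts and osteocytes, 12 were tested. Among them were the collagens Col1a1 (259 to 430 RPKM) and Col1a2 (218 to 343 RPKM) and alkaline phosphatase, Alpl (61.7 to 88.9 RPKM). The osteocyte genes Dmp1, Phex and Pdpn and the PTH receptor gene Pth1r were also among the 12. The mature osteocyte markers Sost, Fgf23 and Mepe were below the filter. Of 15 listed markers of other cell types, 3 were tested, the macrophage gene Cd68 (3.69 to 4.42 RPKM), the neuronal tubulin Tubb3 (13.1 to 19.4 RPKM) and the cartilage collagen Col2a1. Col2a1 had 0.625 and 0.577 RPKM in vehicle, 1.71 and 1.54 in PTH, and 0.73 and 0.771 in YKL-05-093, and was called higher in PTH against vehicle (log2 fold change 1.30, limma adjusted p 0.0147) and against YKL-05-093 (1.02, adjusted p 0.000136). The other 12 were at most 0.101 RPKM in any library, with Cdh5 and Myod1 at 0 in all 6. In bulk RNA such as this, fewer cells of a type and less RNA per cell cannot be told apart.

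The level of the 78 tested genes in vehicle spanned 1.18 to 1782 RPKM, with a median of 59.95 against 6.81 over all genes tested. Four-figure levels were reached by 4 genes, 26 exceeded 100 RPKM and 17 of all 80 lay under 10 RPKM. The 10 highest genes took 54.3% of the reads on the family in vehicle. Rpl8, which lines the catalytic centre of the large subunit, was the highest at 1416 and 2148 RPKM in vehicle, 2068 and 1909 in PTH, and 2000 and 1924 in YKL-05-093 (ENSMUSG00000003970, chromosome 15). Rplp1, a protein of the stalk that recruits elongation factors, followed at 1389 and 2052, 2053 and 1938, and 2094 and 1763 RPKM. These genes differed from each other by less than the 2 vehicle libraries of either did.

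Rps15, near the decoding site, had 909 and 1427 RPKM in vehicle, 1385 and 1361 in PTH, and 1422 and 1266 in YKL-05-093. Rpl32, of the large subunit, had 938 and 1383, 1415 and 1337, and 1318 and 1283. The stalk base Rplp0, often used as a reference gene for PCR, had 769 and 1067, 1156 and 1090, and 1074 and 1056. In all 3 genes the one low value was that of vehicle replicate 1.

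Rpl4, which reaches into the exit tunnel of the large subunit, had 733 and 827 RPKM in vehicle, 859 and 835 in PTH, and 846 and 870 in YKL-05-093. Rpl41 had 406 and 623, 689 and 631, and 672 and 561, and Rps3, at the mRNA entry channel, had 331 and 534, 568 and 502, and 549 and 506. In each of the genes described here, vehicle replicate 1 held the lowest value of all 6 libraries, and Rpl4 showed the smallest gap between the vehicle libraries.

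At the low end, Rpl10l, a copy of Rpl10 known from testis, had no read in 5 libraries and 1 read in YKL-05-093 replicate 2. Rpl3l, a copy of Rpl3 known from muscle, had 1 to 4 reads per library. Where a gene had no read, 3 reads are the limit that the count allows, which is 0.171 RPKM for a gene of 1000 bases in the shallowest library. Rpl23a, which lies at the exit of the tunnel, had 1.01 and 1.34 RPKM in vehicle, Rpl5 2.05 and 2.48, Rps27a 3.51 and 5.39, and Rps13 3.27 and 6.27. Rpl23a, Rpl5, Rps27a and Rps13 encode proteins that each ribosome holds, as Rpl8 does. The levels of the tested genes as a whole were next set beside the uniqueness of their sequence.

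For each gene, the share of all 50-base words of its main transcript that occur in no transcript of another annotated gene was computed (GENCODE M21), 50 bases being the read length. This share ran from 1.35% in Rps27 and 4.91% in Rpl35 to 100% in genes such as Rpl39l and Rpl3l, with a median of 46.8% over the tested genes. The 21 tested genes under 25% had a median vehicle level of 28.3 RPKM, the 28 from 25% to 60% one of 45.5 RPKM, and the 29 at 60% or more one of 123 RPKM. Across the 78 genes Spearman's rho between the share and the level was 0.42, and 0.38 when reads were divided by the length of the main transcript, which are descriptions over genes that share libraries. Rpl24 and Rps15a, named after their values were seen, were low (5.60 and 7.62 RPKM) at 85.4% and 93.6%. Their gene lengths, over which reads were divided, were 7429 and 9620 bases. Their main transcripts, over which the shares were taken, held 4920 and 5179 bases, against a median of 831.5 in the family. Whether a shorter mRNA of either gene is as unique was not tested. In 24 of the 80 genes the gene length was more than 2 times that of the main transcript.

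**Figure D1:**
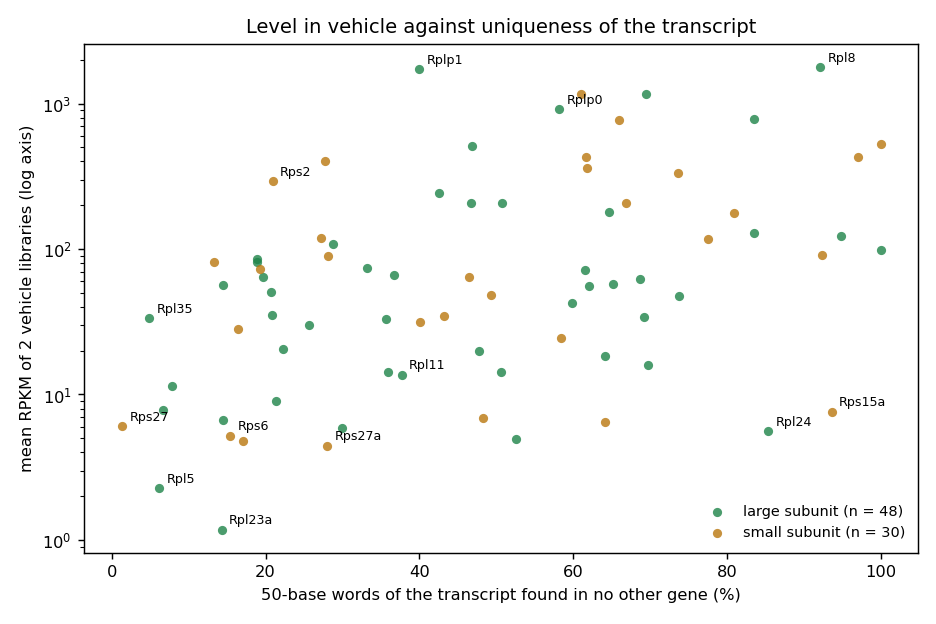
Each point is 1 of the 78 tested ribosomal protein genes; the horizontal axis is the percentage of the 50-base words of its main transcript found in no other gene, and the vertical log axis is the mean RPKM of the 2 vehicle libraries. Genes under 25% had a median of 28.3 RPKM and genes at 60% or more one of 123 RPKM. Rpl24 and Rps15a were low at 85.4% and 93.6%, shares taken over main transcripts of 4920 and 5179 bases.

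Rows named as pseudogenes of these genes numbered 212, of which 52 members had at least one, and 20 such rows exceeded 100 RPKM in vehicle. In 21 genes the highest pseudogene row exceeded the gene itself. Rps6, the substrate of S6 kinases that is followed as a readout of mTORC1, stood at 4.25 and 6.16 RPKM in vehicle, while the row Rps6-ps4 had a vehicle mean of 97.8 RPKM. Rps27a, a fusion of ubiquitin with a small-subunit protein, stood at 4.45 ± 1.33 RPKM (SD, n = 2) against 137 in Rps27a-ps2, and Rpl14 at 207 RPKM against 664 in Rpl14-ps1, the highest of these rows. Levels of single members, paralog pairs and pseudogenes are therefore uncertain where sequence is shared, and how reads that match several places were placed is not stated. The pseudogene rows took 0.356% and 0.515% of the reads in vehicle, 0.527% and 0.489% in PTH, and 0.503% and 0.461% in YKL-05-093, and were lowest in vehicle replicate 1 as the genes were.

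Vehicle replicate 1 stood apart from the other 5 libraries. The genes as a family took 1.47% of its reads (95% Wilson interval 1.47 to 1.48%) against 2.14% in vehicle replicate 2, 2.19% and 2.05% in PTH, and 2.12% and 1.97% in YKL-05-093. The group means were 1.81 ± 0.473% in vehicle, 2.12 ± 0.101% in PTH and 2.04 ± 0.107% in YKL-05-093 (SD, n = 2 each). PTH replicate 1 was the one treated library that lay outside the range of the 2 vehicle libraries, and with 2 libraries against 2 the smallest two-sided p of an exact permutation test is 0.333. Of the 78 genes, 70 (89.7%) had their lowest value in vehicle replicate 1, against 26.02% of all genes tested, and 76 were higher in vehicle replicate 2 than in replicate 1. The median ratio of vehicle replicate 2 to replicate 1 was 1.45 over the 78 genes and 0.957 over all genes tested. In PTH the ratio of replicate 2 to replicate 1 was 0.947, and in YKL-05-093 it was 0.914.

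**Figure D2:**
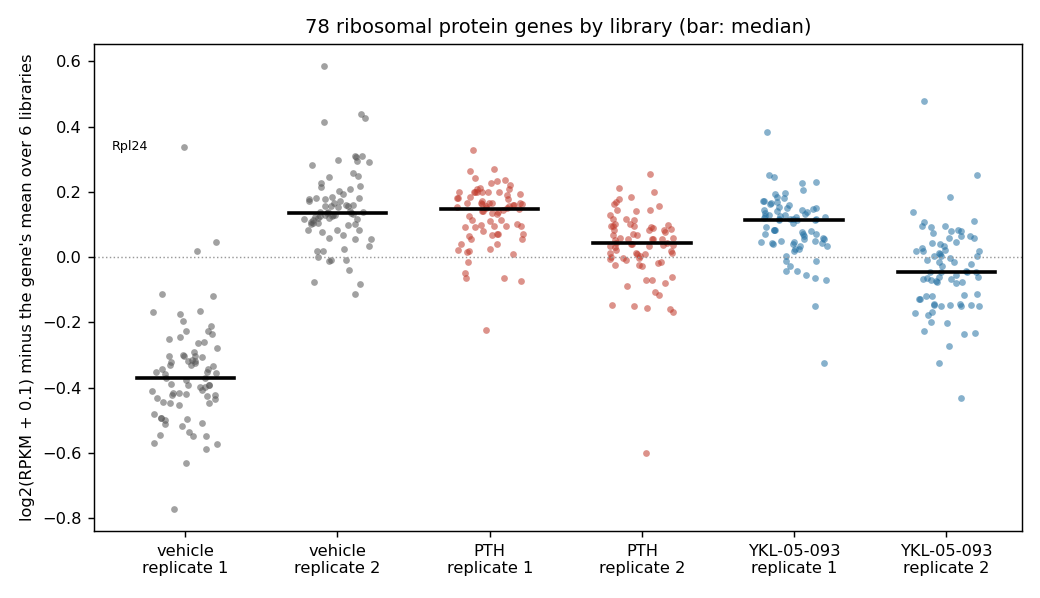
Each point is 1 of the 78 tested ribosomal protein genes in 1 library, as log2(RPKM + 0.1) minus the mean of that gene over the 6 libraries; the black bar is the median. The medians were -0.37 and 0.13 in vehicle, 0.15 and 0.04 in PTH, and 0.11 and -0.05 in YKL-05-093, and Rpl24 was the gene that ran highest in vehicle replicate 1.

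The genes moved together across libraries. Their library medians alone held 66.8% of the sum of squares of the 78 genes about their own means. The low median in vehicle replicate 1 stood beside differences by gene length over all genes. Among genes outside the family, the median log2 difference of vehicle replicate 1 from replicate 2 was -0.23 under 500 bases, -0.42 at 500 to under 1000 bases, -0.28 from there to under 2000 bases, -0.01 from there to under 4000 bases and 0.37 at 4000 bases and over. Among the ribosomal protein genes it was -0.57 (6 genes), -0.60 (20 genes), -0.51 (32 genes), -0.56 (17 genes) and -0.46 (3 genes) in the same classes. The median gene length was 1384.5 bases against 3069 bases over all genes tested. In each class the median of the ribosomal protein genes lay below that of the other genes. With the length trend removed, the median log2 fold change of the family was 0.16 in PTH and 0.14 in YKL-05-093 against vehicle, beside 0.21 and 0.15 as deposited.

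**Figure D3:**
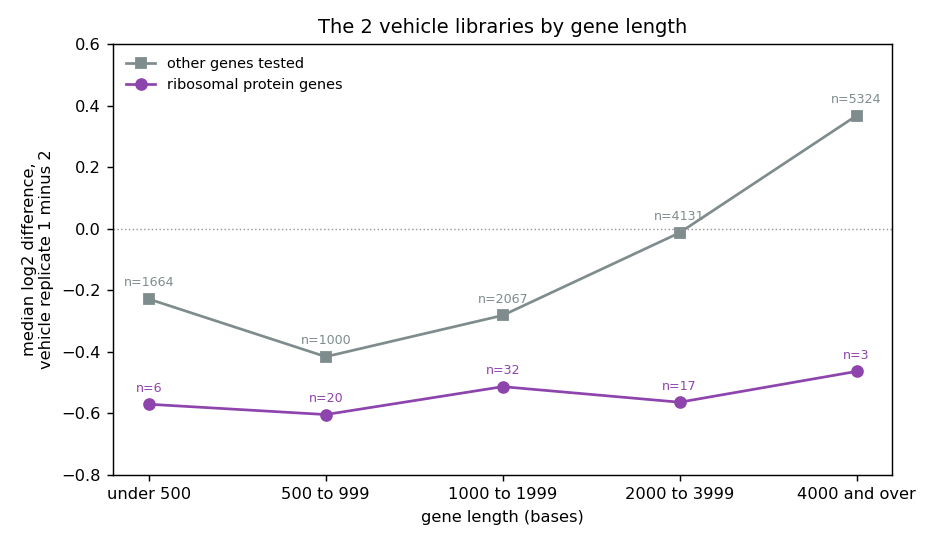
Median log2 difference of vehicle replicate 1 minus vehicle replicate 2 (vertical axis) by class of gene length in bases (horizontal axis), for the ribosomal protein genes and for the other genes tested, with the number of genes at each point. Other genes stood at -0.23 under 500 bases and ran from -0.42 at 500 to under 1000 bases to 0.37 at 4000 bases and over, while the ribosomal protein genes stayed between -0.60 and -0.46.

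Some members left the common pattern. Rpl24, a protein of the bridge between the subunits, had 6.41 and 4.79 RPKM in vehicle, 4.87 and 4.52 in PTH, and 4.8 and 5.09 in YKL-05-093. It was highest in vehicle replicate 1, where most of the family was lowest. Rps27, with the least unique sequence and only 25 to 45 reads per library, had 6.37 and 5.69, 5.90 and 6.06, and 4.91 and 8.64 RPKM.

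In PTH against vehicle, the question is whether the hormone changed ribosomal protein mRNAs within 4 h. No member of the family passed the test (limma on log2(RPKM + 0.1), adjusted p under 0.05 over all genes tested, at which 2.19% of all genes passed), and none had an unadjusted p under 0.05, against 13.3% of all genes. The lowest adjusted p was 0.458, in Rpl36. The median log2 fold change was 0.21 (1.15-fold higher in PTH), against -0.03 over all genes, and 68 of the 78 values were above 0 (87.2%, against 45.7% of all genes). All 78 changes were below 1.5-fold, and the 95% intervals of 75 lay within 2-fold either way. The median was 0.20 over 48 large-subunit genes and 0.21 over 30 small-subunit genes.

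The direction rested on vehicle replicate 1. Without it, the median was -0.04 with 27 of 78 values above 0, and no member passed (lowest adjusted p 0.0564, with 9 at an unadjusted p under 0.05). Without vehicle replicate 2, the median was 0.45, and 56 members were called higher and 1, Rpl24, lower, where 11.9% of all genes were called higher and 19.7% lower. In such a fit the lone vehicle library is assumed to vary like the other group. Without vehicle replicate 1, 5.46% of all genes were called higher and 3.88% lower, so that fit made calls.

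The groups did not overlap in 20 members with PTH higher, 25.6% against a background of 19.1% of all genes, and in 1 with PTH lower, against 24%. Rpl36, of the large subunit, had 68.5 and 103 RPKM in vehicle and 117 and 112 in PTH, a log2 fold change of 0.44 ± 0.22 (SE) with an adjusted p of 0.458. Both PTH libraries lay above both vehicle libraries, but by less than the vehicle libraries lay apart. Rpl38, known for its part in translating Hox mRNAs, had 31.5 and 53.6 against 54.7 and 54.8 RPKM, a log2 fold change of 0.41 ± 0.25. Rpl41 (0.39 ± 0.25) and Rps24 (149 and 206 against 224 and 224 RPKM, 0.35 ± 0.20) followed. In each of them vehicle replicate 2 lay close to the PTH libraries. Rpl5 alone was lower in both PTH libraries, with 2.05 and 2.48 against 1.72 and 1.81 RPKM and a log2 fold change of -0.34 ± 0.18, adjusted p 0.508, from 138 to 277 reads per library.

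In YKL-05-093 against vehicle, no member passed the test, at which 0.666% of all genes passed, and none had an unadjusted p under 0.05, against 8.67% of all genes. The lowest adjusted p was 0.756, again in Rpl36. The median log2 fold change was 0.15 (1.11-fold), against -0.04 over all genes, and 68 of 78 values were above 0 (87.2%, against 43.2% of all genes). The 2 comparisons share their vehicle libraries. Without vehicle replicate 1 the median was -0.11 with 12 of 78 above 0, and none passed (lowest adjusted p 0.121), where 0.26% of all genes were called higher and 0.0492% lower. Without vehicle replicate 2 the median was 0.38 and 28 members were called higher and none lower (lowest adjusted p 0.0267, 54 at an unadjusted p under 0.05), against 5.32% and 13.8% of all genes.

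The groups did not overlap in 7 members with YKL-05-093 higher, 8.97% against a background of 15.7%, and in 1 with it lower, against 22.1%. Rpl36 had 118 and 103 RPKM in YKL-05-093, a log2 fold change of 0.39 ± 0.22. Rps16, of the small subunit, had 21.2 and 27.8 RPKM in vehicle and 30.4 and 28.4 in YKL-05-093 (0.28 ± 0.19), and Rpl28 had 4.55 and 5.38 against 5.57 and 6.46 (0.27 ± 0.19). Rpl7a had 69.8 and 94.1 against 96.1 and 95.9 RPKM, a log2 fold change of 0.24 ± 0.19. In all 4 the upper vehicle library lay close to the lower treated one. Rpl31 was the member below vehicle in both libraries, with 5.24 and 6.56 against 5.12 and 5.11 RPKM and a log2 fold change of -0.19 ± 0.19.

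**Figure D4:**
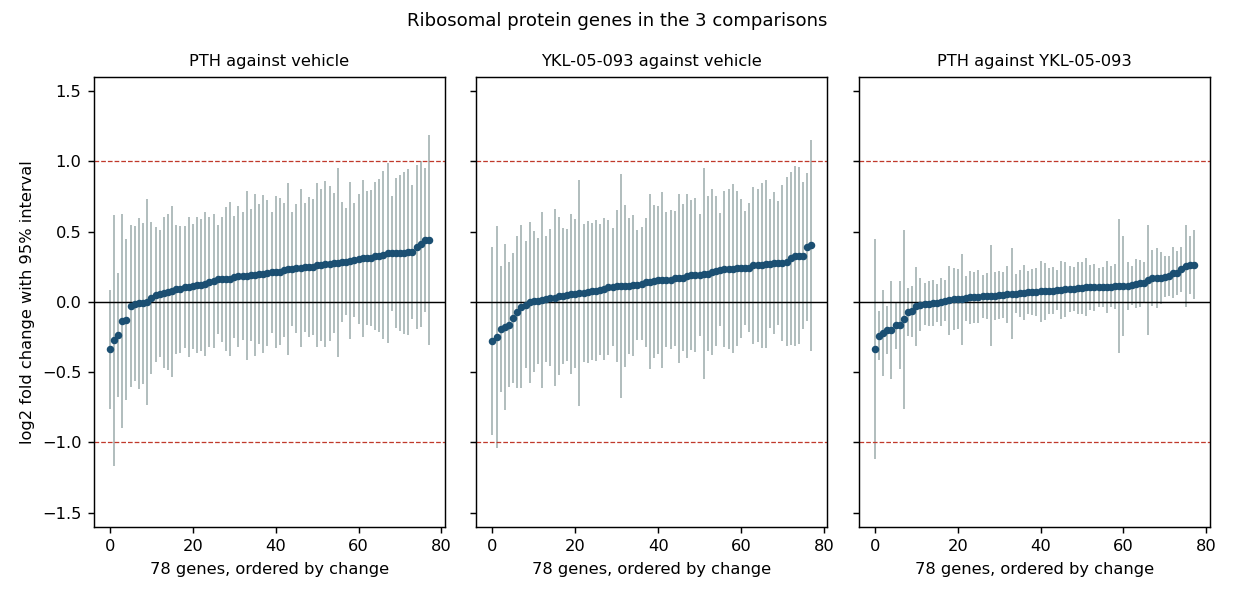
The 78 tested ribosomal protein genes in each comparison, ordered by log2 fold change (points), with 95% intervals from limma (lines); dashed lines mark 2-fold. The points lie mostly above 0 in both comparisons with vehicle, every interval in PTH against vehicle spans 0, and the intervals are narrowest in PTH against YKL-05-093.

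PTH and YKL-05-093 were also compared directly, which leaves vehicle out. No member passed, at which threshold 9.97% of all genes passed, while 9 of 78 had an unadjusted p under 0.05 (11.5%, against 22.3% of all genes). The median log2 fold change was 0.07 (1.05-fold higher in PTH), against 0.01 over all genes, with 61 of 78 above 0. The intervals were tighter here, with a median half-width of 0.17 against 0.52 in PTH against vehicle, and 77 of the 78 lay within 2-fold either way. The groups did not overlap in 21 members with PTH higher, 26.9% against 26.3% of all genes, and in 7 with PTH lower, against 23.7%. Without YKL-05-093 replicate 2 the median was 0.00 with 39 values on each side, and without PTH replicate 1 it was 0.02 with 48 of 78 above 0, so the small offset depended on both of these libraries.

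The lowest adjusted p was 0.0628, in Rpl34, which had 69.4 and 67.7 RPKM in PTH and 62.5 and 54.4 in YKL-05-093, a log2 fold change of 0.23 ± 0.08. Rpl37 had 76.2 and 76.4 against 72.7 and 55.6 RPKM (0.26 ± 0.10, adjusted p 0.11), and Rpl35a, one of the genes mutated in Diamond-Blackfan anaemia, 23.8 and 25.1 against 21.3 and 21.02 (0.21 ± 0.07, adjusted p 0.0919). Rpl31 had 6.54 and 5.72 against 5.12 and 5.11 RPKM (0.25 ± 0.14). These 4 genes were higher in both PTH libraries by at most 1.2-fold.

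Lower in both PTH libraries were Rpl10a, at the stalk of the large subunit that faces the exit site, with 19.7 and 19.3 against 22.5 and 23.6 RPKM (-0.24 ± 0.08, adjusted p 0.079), and Rpl12, at the base of the P stalk, with 15.8 and 14.7 against 18.4 and 16.7 (-0.20 ± 0.08, adjusted p 0.141). Rpl5 had 1.72 and 1.81 against 2.31 and 1.86 RPKM (-0.22 ± 0.14), and Rps29 6.17 and 6.15 against 7.07 and 7.13 (-0.20 ± 0.16). The call on Rpl10a and Rpl34 depended on the fit: Rpl10a passed at adjusted p values of 0.0319 to 0.0462 with median-ratio scaling, with the length trend removed and with voom on the recovered reads, and Rpl34 at 0.0449 when reads outside the mitochondrial genome set the scale. With the replicate number as a block, which the libraries do not bear out as a pairing, Rpl34 passed at 0.0293, Rpl37 at 0.0145 and Rpl35 at 0.0159.

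Within the P stalk, Rplp2 had 28.7 and 39.2 RPKM in vehicle, 40.7 and 38.9 in PTH, and 39.6 and 33.4 in YKL-05-093, far below Rplp0 and Rplp1 on the same RPKM scale. The log2 fold changes in PTH against vehicle were 0.31 ± 0.24 in Rplp0, 0.24 ± 0.24 in Rplp1 and 0.25 ± 0.20 in Rplp2, and those in YKL-05-093 against vehicle were 0.23, 0.19 and 0.12. Rpl5 and Rpl11 bind the ribosome's 5S RNA and, when free, the p53 regulator MDM2. Rpl11 had 11.01 and 16.3 RPKM in vehicle, 14.9 and 14.1 in PTH, and 16.7 and 15.9 in YKL-05-093, so that its PTH libraries lay between the vehicle libraries. Rps6 had 5.78 and 4.45 RPKM in PTH and 5.33 and 4.46 in YKL-05-093, with log2 fold changes of -0.01 ± 0.24 and -0.07 ± 0.23 against vehicle. Rps27a had 4.44 and 3.56, and 4.38 and 2.90 RPKM, with -0.13 ± 0.25 and -0.28 ± 0.28.

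Paralogs that can take a family member's place were compared with it. Rps27l, a p53-responsive copy of Rps27, had 90.4 and 144 RPKM in vehicle, 124 and 115 in PTH, and 122 and 106 in YKL-05-093, well above Rps27. Rpl39l, a copy of Rpl39 known from testis, had 76.5 and 119 RPKM in vehicle against 109 and 150 in Rpl39. Rpl36al had 51.9 and 81.1 RPKM against 5.24 and 8.11 in Rpl36a. In the pairs Rps27 and Rps27l, and Rpl36a and Rpl36al, the copy with the more unique sequence had the higher level (77.6% against 1.35% and 36.7% against 14.5%). In the other 3 pairs measured it had the lower level, at 100% in Rpl39l against 83.5% in Rpl39, 100% in Rpl3l against 14.4% in Rpl3, and 92.4% in Rpl10l against 7.87% in Rpl10. Rpl3 (51.3 and 62.3 RPKM) and Rpl10 (9.5 and 13.3 RPKM) stood above their tissue-specific copies Rpl3l and Rpl10l. The X-linked Rps4x had 342 and 466 RPKM in vehicle, and its copy Rps4l has no value here. No paralog passed in any comparison, and their log2 fold changes against vehicle ran from -0.03 to 0.30 in the pairs tested.

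The ribosomal proteins that the symbol rule leaves out had the following values. Rpsa, a small-subunit protein also known as the laminin receptor, had 94.4 and 133 RPKM in vehicle, 138 and 130 in PTH, and 133 and 130 in YKL-05-093. Rps3a1 had 213 and 276, 261 and 249, and 268 and 248. Fau, a fusion of a ubiquitin-like protein with a ribosomal protein, had 16.2 and 26 RPKM in vehicle. Rpl22l1 had 58.2 and 81.9 RPKM in vehicle and Rpl7l1 48.9 and 59.8. The list held 7 genes with the row Rpl9-ps6, none passed in any comparison, and their median log2 fold changes were 0.26 in PTH and 0.23 in YKL-05-093 against vehicle. The medians were 0.01 and -0.01 without vehicle replicate 1, and 0.51 and 0.48 without vehicle replicate 2.

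The gene bodies of 28 members hold 53 annotated snoRNA rows on the same strand, RNAs that mostly guide the modification of ribosomal RNA. Of these, 24 had a mean of at least 20 reads. Snord15a, inside Rps3, had 1311 and 1663 RPKM in vehicle, 2096 and 2160 in PTH, and 2153 and 1255 in YKL-05-093. The median log2 difference of the 24 from vehicle replicate 2 was -0.04 in vehicle replicate 1, 0.58 and 0.52 in PTH, and 0.50 and 0.02 in YKL-05-093. The YKL-05-093 libraries thus differed from each other by about as much as the PTH libraries from vehicle, and 20 of the 24 rows were lower in YKL-05-093 replicate 2 than in replicate 1. How far such short RNAs entered the libraries was not tested.

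Mitochondrial ribosomal protein genes, which serve the ribosomes of mitochondria, had 75 of 76 tested, and their median ratio of vehicle replicate 1 to replicate 2 was 0.722, near the 0.689 of the cytosolic family. Their medians were 0.09 in PTH and 0.02 in YKL-05-093 against vehicle, turned to -0.14 and -0.19 without vehicle replicate 1, and none passed in either comparison. In PTH against YKL-05-093, 2 were called higher, Mrps31 (25.2 and 23.5 against 19.3 and 19.96 RPKM, log2 fold change 0.31 ± 0.08, adjusted p 0.0209) and Mrpl52 (131 and 125 against 112 and 100 RPKM, 0.27 ± 0.08, adjusted p 0.0391). These calls were lost in 8 and 12 of 16 alternatives, and 9.97% of all genes were called in that comparison. Translation factors and other genes with a TOP tract, such as Eef1a1, Eef2 and Gnb2l1, had medians of 0.10 and 0.08 over 28 genes, which turned to -0.02 and -0.01 without vehicle replicate 1, and none passed.

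Ribosome biogenesis genes, whose products make and process ribosomal RNA, ran the other way. None of the 57 tested passed with both vehicle libraries in either comparison with vehicle, where 21 and 20 had an unadjusted p under 0.05 (13.3% and 8.67% of all genes). Their medians were -0.32 in PTH and -0.31 in YKL-05-093, with 8 and 7 of 57 above 0, and their vehicle libraries differed by a median of only -0.01. Without vehicle replicate 1 the medians were -0.33 and -0.27, and 16 and 0 genes were called lower and none higher, where 3.88% and 0.0492% of all genes were called lower. With the same library left out and all other libraries in 1 fit, an alternative added after seeing the data, 26 and 24 were called lower and none higher, against 6.86% and 5.28% of all genes lower and 8.1% and 6.09% higher. Without vehicle replicate 2 they were -0.38 and -0.38, with 29 and 24 called lower and 3 and 2 higher, against 19.7% and 13.8% of all genes lower and 11.9% and 5.32% higher. Dkc1, the pseudouridine synthase dyskerin, had 26.5 and 21.8 RPKM in vehicle, 13.8 and 13.1 in PTH, and 15.2 and 15.7 in YKL-05-093, with log2 fold changes of -0.84 ± 0.17 (adjusted p 0.064) and -0.64 ± 0.17 (adjusted p 0.251). Polr1b, a subunit of RNA polymerase I, had 6.82 and 6.65, 4.14 and 3.54, and 4.03 and 4.47 RPKM, with -0.80 ± 0.16 (adjusted p 0.0621) and -0.65 ± 0.16 (adjusted p 0.186). Dkc1 and Polr1b were chosen after their values were seen, as the largest 2 changes of the list in PTH. In PTH against YKL-05-093, Ltv1, an assembly factor of the small subunit, was called higher (22.2 and 20.8 against 17.1 and 18.5 RPKM, 0.27 ± 0.08, adjusted p 0.047). The call was lost in 11 of 16 alternatives. No other gene of the list was called in that comparison, where 9.97% of all genes were called.

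**Figure D5:**
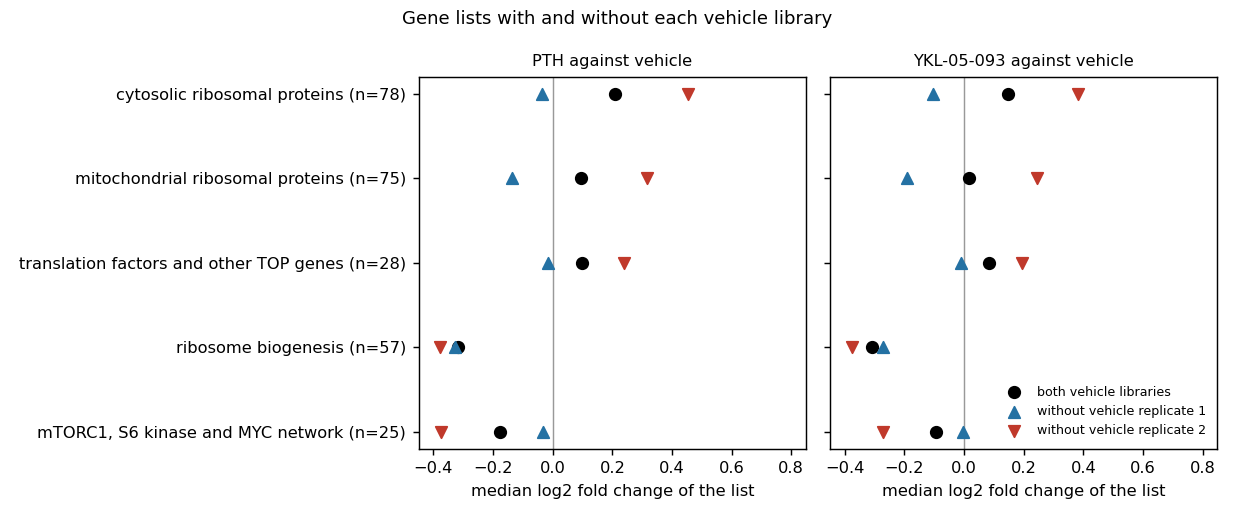
Median log2 fold change against vehicle (horizontal axis) of 5 gene lists, with both vehicle libraries and with either one left out, for PTH (left) and YKL-05-093 (right). The cytosolic ribosomal protein genes ran from -0.04 to 0.45 in PTH and from -0.11 to 0.38 in YKL-05-093 depending on the vehicle library used, while the ribosome biogenesis genes stayed between -0.38 and -0.27.

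Of 25 tested genes of mTORC1, the S6 kinases and the MYC network, 1 was called in PTH against vehicle. In that comparison 2.19% of all genes were called. Myc, which drives transcription of ribosome genes, had 14.0 and 14.5 RPKM in vehicle, 7.27 and 7.61 in PTH, and 7.90 and 10.1 in YKL-05-093. The 2 vehicle libraries differed little and all treated libraries lay below them. Its log2 fold change was -0.93 ± 0.15 in PTH (adjusted p 0.0278) and -0.67 ± 0.18 in YKL-05-093 (adjusted p 0.24). Left-out vehicle libraries gave -0.96 and -0.90 in PTH, both called, and the call was lost in 5 of 17 alternatives. In PTH against YKL-05-093, 2 of the 25 genes were called lower, where 9.97% of all genes were called in either direction. Larp1, which binds the TOP tract, had 25.0 and 16.4 RPKM in vehicle, 11.6 and 11.7 in PTH, and 14.2 and 14.0 in YKL-05-093, a log2 fold change of -0.28 ± 0.07 between the treatments (adjusted p 0.0109). Against vehicle, where its libraries lay far apart, it was -0.79 ± 0.22 in PTH (adjusted p 0.167), and it was called lower with either vehicle library left out, at -0.49 without replicate 1 (adjusted p 0.0187) and -1.10 without replicate 2 (adjusted p 0.0049). Mxi1, an antagonist of MYC, had 13.4 and 11.9, 17.6 and 17.4, and 19.6 and 21.4 RPKM, with -0.22 ± 0.07 between the treatments (adjusted p 0.049). The calls of Larp1 and Mxi1 between the treatments were lost in 8 and 12 of 16 alternatives.

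The genes most like the family were sought among 14186 other tested genes by Pearson correlation over the 6 libraries with the mean of its members. The 10 highest, at 0.996 to 0.999, were Hist1h2bg, Prdx4, Psmb6, Cox4i1, Tmem258, Uqcr10, Gm2000, Mrpl28, Cdc123 and Atp5e. Cox4i1, a subunit of cytochrome c oxidase, had 311 and 450 RPKM in vehicle, 450 and 414 in PTH, and 429 and 386 in YKL-05-093. Psmb6, a proteasome subunit, had 98.6 and 166, 160 and 147, and 152 and 134. Both repeated the low value in vehicle replicate 1. Correlations above 0.9 were seen in 852 genes, with a median gene length of 1327.5 bases, and below -0.9 in 1008 genes, with one of 6819.5 bases. The points share libraries and these values are descriptions over 6 libraries of which 1 stands apart.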

How the data were processed

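RNA from 6 libraries of Ocy454 cells was depleted of ribosomal RNA and sequenced as paired reads of 50 bases. Per the labels and methods, the authors used CASAVA 1.7, aligned with STAR to mm10/GRCm38, counted reads per Ensembl gene with HTSeq and deposited RPKM values; whether strand was used and how reads matching several places were treated are not given in the sources used here. Here, whole reads were recovered from the RPKM values: library totals ran from 17505798 to 27983585, recovered reads made up 99.7% of each, and 36.0% of genes above 0 matched the merged exon length of GENCODE M21 less 1 base per exon block. Gene positions are from GENCODE M21 (GRCm38). Tests used limma 3.58.1 (R 4.3.3) on log2(RPKM + 0.1), so folds of low genes are understated, with at least 0.5 RPKM in at least 2 libraries, the 4 libraries of each comparison, a prior variance trend on reads and Benjamini-Hochberg adjustment over all genes tested; a call is an adjusted p under 0.05. The code was tested on simulated data. Groups come from the sample titles. Members, lists and the alternatives were chosen with earlier results of these data known. Genes named are the 10 highest and 5 lowest members in vehicle, the 4 largest non-overlapping changes per direction and comparison, fixed functional groups, list genes past the threshold and the 10 most correlated genes; other names are said to be chosen afterwards. The 20 members without a promoter window had no motif searched. Some genes that the naming rule takes are not reported here. Protein sequences were not used here.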

Additional observations from a re-analysis of the deposited data

How the results depend on the processing

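Leaving out 1 library at a time moved the number of ribosomal protein genes called between 0 and 57 in PTH against vehicle and between 0 and 28 in YKL-05-093 against vehicle, and kept it at 0 in PTH against YKL-05-093; the median log2 fold change ran from -0.0359 to 0.4531, from -0.1057 to 0.3819 and from -0.002915 to 0.1448. With all 6 libraries in 1 fit less vehicle replicate 1, an alternative added after seeing the data, the medians were -0.0359 and -0.1057 and 1 gene was called in each comparison with vehicle, Rpl10a and Rpl27, both lower. Scaling to the median member, also added afterwards, gave medians of -0.007573 and -0.007354, near 0 by construction, and no call in the family. Over all genes that scaling called 0 in PTH against vehicle and 1 in YKL-05-093 against vehicle, beside 313 and 95 in the main fits. In PTH against YKL-05-093, the fits without PTH replicate 1 or without PTH replicate 2 called no gene in the whole data set. They could not have called a family member, so their count of 0 for the family decides nothing. The fits without either YKL-05-093 library did make calls over all genes. In PTH against YKL-05-093, 1 gene was called with median-ratio scaling, with the length trend removed and with voom (Rpl10a, lower) and with scaling to reads outside the mitochondrial genome (Rpl34, higher), and the cause was not tested. The other pseudocounts, filters and variance trend made no call in the family and kept each median's sign. Over all genes, the fit with no filter called 0 in both comparisons with vehicle, and the other variance trend called 6 in YKL-05-093 against vehicle. The lack of a family call in those fits therefore says little. The rest called 55 to 313 genes against vehicle, and all of them 302 to 1308 in PTH against YKL-05-093. Taking the replicate number as a block called 0, 0 and 3 genes, the 3 being Rpl34, Rpl35 and Rpl37 in PTH against YKL-05-093, and raised the calls over all genes from 313 to 758, from 95 to 301 and from 1421 to 1750; it changed no other call on the family. Same-numbered libraries did not deviate together (correlations of -0.03 to -0.05), so the numbers were not taken as a pairing. The family's share of reads outside the mitochondrial genome was 2.094% in vehicle (SD 0.603), 2.499% in PTH and 2.391% in YKL-05-093. Its share of summed RPKM was 2.425%, 2.399% and 2.466% in vehicle, PTH and YKL-05-093. Having 2 libraries a group limits every test, and 6 tested genes had under 100 reads in some library. Over 46 genes taken by the naming rule, 2300 values under alternatives held 2179 with the same call, 65 gained, 56 lost and 0 reversed.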
